A study of Mus musculus with 6 samples.

Results

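The genes described here encode the surface proteins by which mouse blood stem cells and multipotent progenitors are usually gated for sorting. They were chosen by symbol from a list of 10 names. Slamf2 has no row of its own and is another name for Cd48, so 9 genes were followed among the 30733 symbols listed in each library: Kit, Flt3, Cd34, Slamf1, Cd48, Procr, Thy1, Cd27 and Esam. RNA sequencing was done on 3 libraries of MHCII-hi cells and 3 libraries of MHCII-lo cells, where MHCII is MHC class II, which displays peptides to helper T cells. Both groups were labelled as haematopoietic stem cells (HSCs), were sorted from bone marrow of WT mice, and had the same exposure, total body irradiation at 5 Gy. There was no unirradiated group. The antibodies of the sort, the strain, sex and age of the mice, the time since exposure and any pooling of animals are not stated in the labels. The libraries were not said to come from separate mice, so p-values reflect the spread among these libraries alone, and that spread may be technical.

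In mouse marrow, stem cells and early progenitors are found among cells that lack lineage antigens and carry both Sca-1 (the product of Ly6a) and c-Kit. Within that fraction the long-term stem cells are known for CD150 (Slamf1), EPCR (Procr) and ESAM, with little CD48, CD34 or FLT3. FLT3, CD34 and CD48 appear as cells turn into multipotent and lineage-primed progenitors. Several of these proteins are also carried by mature cells: KIT by mast cells, THY1 and CD27 by T cells, CD48 by most leukocytes, and ESAM and EPCR by endothelium.

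Levels are in FPKM, a count of fragments divided by transcript length and by depth, and means are given ± SD with n = 3 libraries a group. Read as single fragments, the lowest values put the depth at 2.04e+07 to 3.24e+07 fragments in MHCII-hi libraries and 2.24e+07 to 2.45e+07 fragments in MHCII-lo libraries. Immunoglobulin genes took 23.4 to 23.7% of summed FPKM in MHCII-hi libraries and 0.493 to 0.502% in MHCII-lo libraries. FPKM is relative to the library total, so this share bears on every change below. Over all genes, 3084 of 12110 tested were higher in MHCII-hi (25.5%) and 4009 were lower (33.1%), 58.6% in all.

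The RNA of both groups carried Kit, Flt3, Cd34, Thy1 and Cd27 at moderate levels and Cd48 at a high level, while Slamf1, Procr and Esam stayed below 1 FPKM in every library. All 6 genes that reached a mean of 1 FPKM were higher in MHCII-hi, where 25.5% of all tested genes were called higher, 33.1% lower and 58.6% in either direction. The ratios of mean FPKM were 1.18 for Cd48, 1.19 for Kit, 1.54 for Cd34, 1.91 for Cd27, 2.27 for Thy1 and 2.45 for Flt3. Every MHCII-hi library lay above every MHCII-lo library for each of these 6 genes, which was so for 29.0% of the tested genes. In bulk RNA, fewer cells of a type and less RNA per cell cannot be told apart.

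**Figure D1:**
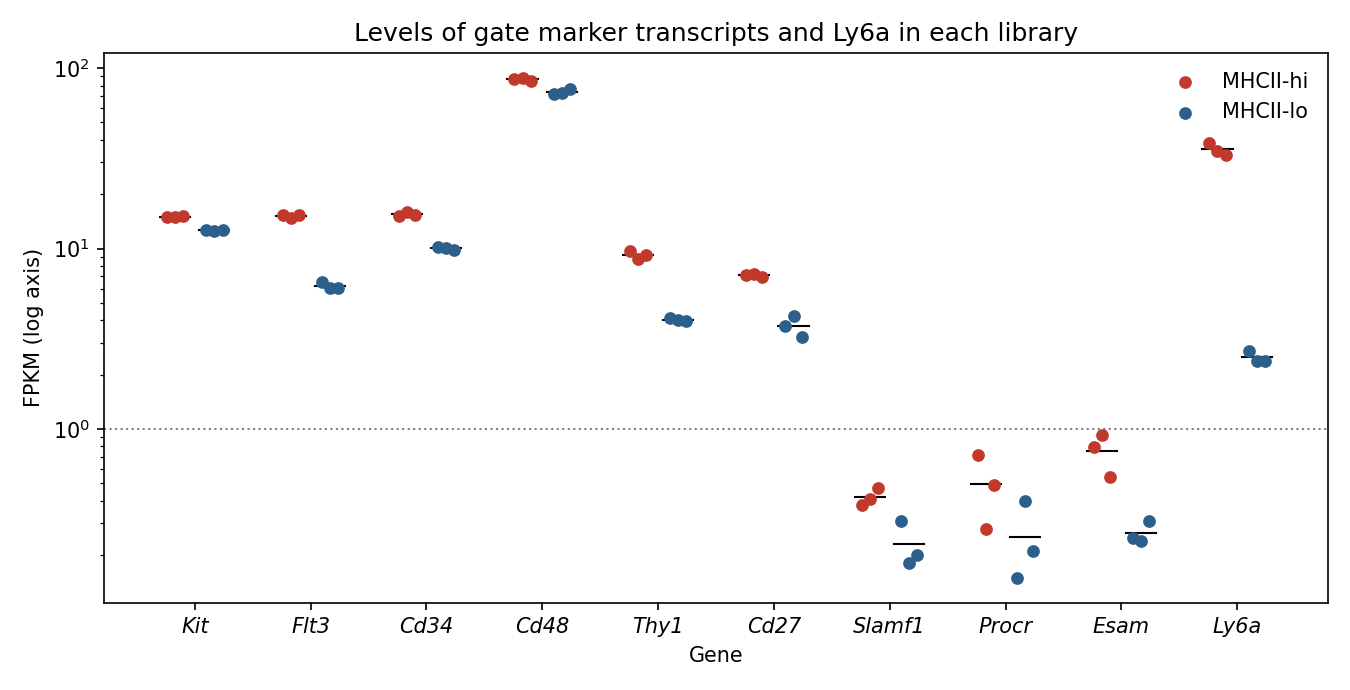
FPKM of the 9 gate marker genes and Ly6a in each library, on a log axis, with 3 points and a bar for the mean in each group, MHCII-hi at left of each gene. The dotted line is 1 FPKM, the minimum mean for testing. Slamf1, Procr and Esam sit below it in both groups, and Procr is the gene whose groups overlap.

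The receptor tyrosine kinases Kit and Flt3 are close relatives that bind different cytokines. Kit (chromosome 5, 75574916 to 75656722, plus strand, GRCm38) encodes the receptor for stem cell factor. It stood at 14.87, 14.99 and 15.07 FPKM in MHCII-hi, against 12.63, 12.50 and 12.63 FPKM in MHCII-lo. The groups did not overlap, and each varied by less than 1% of its mean, although the difference was only 2.39 FPKM. These values rest on an estimated 2725 to 4293 fragments in MHCII-hi and 2521 to 2757 in MHCII-lo. Counting error at such numbers is larger than the spread seen, so that spread may understate the error. With 1 FPKM added before taking logs, as throughout, the log2 change of MHCII-hi over MHCII-lo was 0.23 (SE 0.03, limma adjusted p = 0.000524).

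Flt3 (chromosome 5, 147330741 to 147400489, minus strand) encodes the receptor for FLT3 ligand and is used to separate multipotent progenitors from stem cells. Its values were 15.30, 14.82 and 15.41 FPKM in MHCII-hi, against 6.50, 6.08 and 6.01 FPKM in MHCII-lo. All 3 MHCII-hi libraries were more than 2 times as high as any MHCII-lo library. Flt3 had the greatest change of the 6 tested markers. Its log2 change was 1.17 (SE 0.04, limma adjusted p = 1.22e-06), which exceeded the change of 96.5% of all tested genes.

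Kit and Flt3 stood at the same level in MHCII-hi, with means of 15.0 ± 0.101 and 15.2 ± 0.314 FPKM and overlapping libraries. In MHCII-lo Flt3, at 6.20 ± 0.265 FPKM, was below Kit, at 12.6 ± 0.0751 FPKM, in every library. The ratio of Flt3 to Kit within a library does not change when all values of a library are multiplied by a common factor. It was 1.03, 0.989 and 1.02 in MHCII-hi, against 0.515, 0.486 and 0.476 in MHCII-lo. The difference in log2 ratio was 1.03; the two-sided exact permutation test gave p = 0.1, and 3 values against 3 can give none smaller. Kit ligand (Kitl), made by marrow stroma, stood at 0.120 ± 0.0361 FPKM in MHCII-hi and 0.0733 ± 0.0208 FPKM in MHCII-lo, and its libraries overlapped.

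The bases before the starts of Flt3 and Kit are shown because these related genes moved by different amounts. They are RefSeq sequences of GRCm38.p6, read 5′ to 3′ on the strand of the gene, and end at the base before the first annotated exon. The Flt3 stretch is chr5:147400490-147400739 and the Kit stretch is chr5:75574737-75574915.
Flt3: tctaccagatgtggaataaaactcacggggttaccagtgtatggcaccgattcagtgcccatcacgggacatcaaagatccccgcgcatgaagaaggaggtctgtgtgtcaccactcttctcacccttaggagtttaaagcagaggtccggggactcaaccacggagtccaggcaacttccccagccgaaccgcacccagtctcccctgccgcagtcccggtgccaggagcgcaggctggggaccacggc
Kit: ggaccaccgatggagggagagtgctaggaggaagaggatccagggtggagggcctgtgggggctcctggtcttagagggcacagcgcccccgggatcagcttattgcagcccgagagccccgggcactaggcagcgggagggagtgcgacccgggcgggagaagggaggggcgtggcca
Over 250 bases before the RefSeq start, G and C made up 59.2% of the Flt3 window and 70.8% of the Kit window, against a median of 52.0% over the windows of 27025 genes.

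Cd34 (chromosome 1, 194938819 to 194961279, plus strand) encodes a sialomucin of the cell surface; in adult mice it is scarce on resting long-term stem cells and present on their progeny. Cd34 stood at 15.11, 15.89 and 15.39 FPKM in MHCII-hi, against 10.18, 10.12 and 9.84 FPKM in MHCII-lo. Within a group the values were close, and the lowest MHCII-hi value was well above the highest MHCII-lo value. The log2 change was 0.58 (SE 0.03, limma adjusted p = 1.71e-05). Relative to Kit, the Cd34 ratio was 1.02 to 1.06 in MHCII-hi and 0.779 to 0.810 in MHCII-lo. The exons of Cd34 share 148 bases with the antisense gene Gm16897, 2.03% of their length.

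Cd48 and Slamf1 are neighbouring members of the SLAM family on chromosome 1, and gates for stem cells set them against each other, taking cells with CD150 and without CD48. Cd48 (171682009 to 171705258, plus strand) encodes a GPI-anchored ligand of CD244. It was the most abundant of the 9 genes in both groups, at 86.80, 88.13 and 84.80 FPKM in MHCII-hi, against 71.56, 72.70 and 76.50 FPKM in MHCII-lo. The log2 change was 0.23 (SE 0.03, limma adjusted p = 0.000821). Under quantile normalization it was 0.04, with a limma adjusted p = 0.251, so the call for Cd48 rested on the scaling. Cd48 took 57.7% of the summed FPKM of the 9 genes in MHCII-hi and 66.3% in MHCII-lo. Its ratio to Kit was 5.63 to 5.88 in MHCII-hi and 5.67 to 6.06 in MHCII-lo, and the groups overlapped (difference in log2 ratio -0.01, two-sided exact permutation p = 0.8).

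Slamf1 (171767127 to 171801184, plus strand) encodes CD150, a receptor that binds itself on other cells. It stood at 0.38, 0.41 and 0.47 FPKM in MHCII-hi, against 0.31, 0.18 and 0.20 FPKM in MHCII-lo. The groups did not overlap, but every value was low, near the middle of all listed symbols (51.3 to 53.0% of symbols were lower in MHCII-hi and 47.7 to 52.5% in MHCII-lo). At the estimated depth these values rest on 51 to 76 fragments in MHCII-hi and 27 to 43 fragments in MHCII-lo. Slamf1 was below the minimum for testing; without a minimum its log2 change was 0.21 (SE 0.06, limma adjusted p = 0.0458), where 14.6% of 27171 genes were called higher.

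Cd48 thus exceeded Slamf1 by a wide margin in every library. Per length, the Cd48 to Slamf1 ratio was 228, 215 and 180 in MHCII-hi, against 231, 404 and 382 in MHCII-lo. The log2 ratio, with 0.1 FPKM added to both, averaged 7.38 ± 0.15 in MHCII-hi libraries and 7.82 ± 0.32 in MHCII-lo libraries. These means differ by -0.44 (two-sided exact permutation p = 0.2), and the lowest MHCII-lo library lay within the range of MHCII-hi. That overlap came with the added 0.1 FPKM, since the plain ratios do not overlap. With 0.01 FPKM added the difference was -0.64, with no overlap (two-sided exact permutation p = 0.1), and with 1 FPKM added it was 0.02. Cd244a, the receptor for CD48, was measured at 6.16 ± 0.300 FPKM in MHCII-hi and 6.32 ± 0.0666 FPKM in MHCII-lo, a log2 change of -0.03 that did not pass the test (limma adjusted p = 0.551).

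The stretches before Cd48 (chr1:171681742-171681991) and Slamf1 (chr1:171766882-171767126) are shown because these neighbours stood at such different levels. Capitals in the Cd48 stretch mark a match to the RUNX motif, 76 to 71 bases before the RefSeq start.
Cd48: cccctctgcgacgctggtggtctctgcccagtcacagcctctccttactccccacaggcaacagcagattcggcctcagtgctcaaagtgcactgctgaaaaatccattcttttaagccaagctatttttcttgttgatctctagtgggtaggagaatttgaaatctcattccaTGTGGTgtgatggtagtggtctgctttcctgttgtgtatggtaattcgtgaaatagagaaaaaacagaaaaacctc
Slamf1: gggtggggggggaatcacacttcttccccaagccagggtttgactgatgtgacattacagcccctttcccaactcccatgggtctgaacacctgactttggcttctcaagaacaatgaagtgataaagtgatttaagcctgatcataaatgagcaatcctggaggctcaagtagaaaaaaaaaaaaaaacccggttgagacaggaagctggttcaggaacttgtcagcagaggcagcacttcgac
The windows of 7 of the 9 genes were at hand, 250 bases each, and 4 motifs were sought on both strands; no matches overlapped. The RUNX motif TGTGGT was in the Cd48 window and in 14.2% of all 27025 windows. An E-box, CAGCTG, was in the Procr window (34 to 29 bases before the RefSeq start) and in 12.7% of all windows. By the gene coordinates given for Procr below, that match lies inside the gene. A GATA motif (AGATAA) and an ETS motif (AGGAAGT) were in none of the 7 windows, against 10.2% and 7.77% of all windows. A match or its absence in such a window is only a description of these letters.

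Thy1 and Cd27 are surface proteins shared by early progenitors and lymphocytes. Thy1 (chromosome 9, 44043384 to 44048579, plus strand) encodes CD90, a GPI-anchored protein that is low on mouse stem cells and high on T cells. It stood at 9.65, 8.72 and 9.15 FPKM in MHCII-hi, against 4.12, 4.01 and 3.98 FPKM in MHCII-lo. The MHCII-lo libraries were nearly equal, and the lowest MHCII-hi value was more than 2 times the highest of them. The log2 change was 1.01 (SE 0.05, limma adjusted p = 4.99e-06), above that of 95.9% of tested genes.

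Cd27 (chromosome 6, 125232622 to 125237010, minus strand) encodes a TNF receptor family member that binds CD70. It stood at 7.15, 7.18 and 6.97 FPKM in MHCII-hi, against 3.71, 4.21 and 3.24 FPKM in MHCII-lo. The MHCII-lo libraries varied by 13.04% of their mean, the widest spread among the 6 tested markers, yet all stayed below every MHCII-hi library. The log2 change was 0.78 (SE 0.08, limma adjusted p = 0.000169). The miRNA gene Mir8113 shares 129 bases with its exons. Relative to Kit, Cd27 stood at 0.463 to 0.481 in MHCII-hi and 0.257 to 0.337 in MHCII-lo, and Thy1 at 0.582 to 0.649 in MHCII-hi and 0.315 to 0.326 in MHCII-lo. The differences in log2 ratio were 0.67 for Cd27 and 0.91 for Thy1, each with a two-sided exact permutation p = 0.1. Adjusted over the 8 ratios computed, p was 0.133 for those at 0.1.

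**Figure D2:**
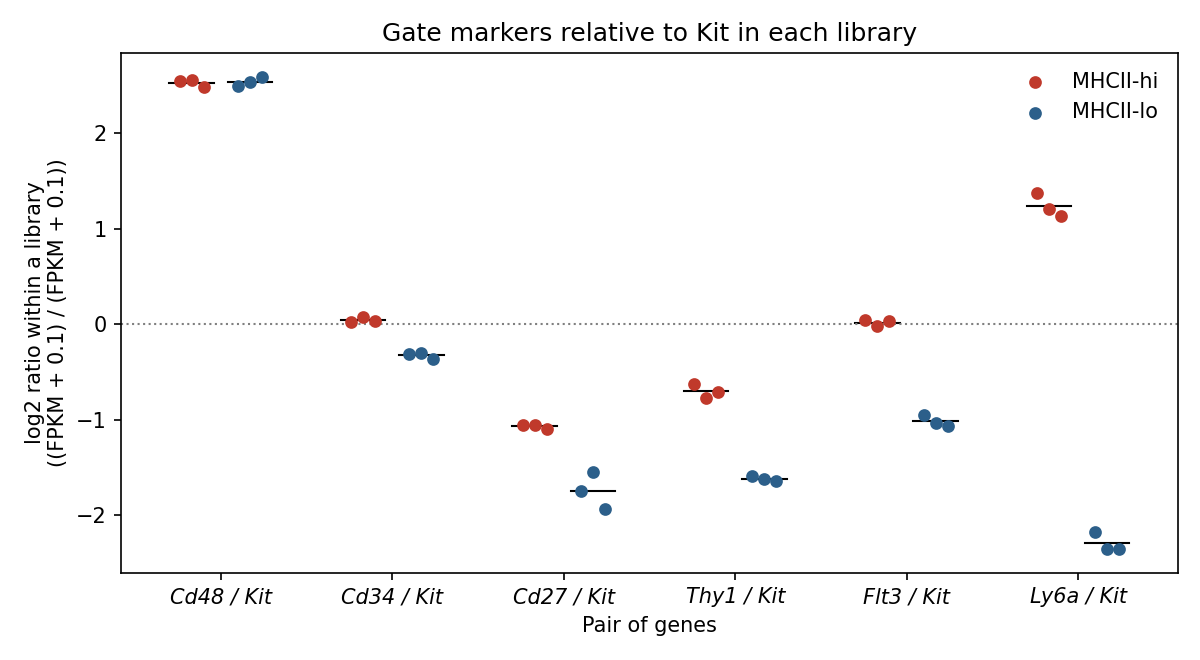
Log2 ratio of each gene to Kit within a library, with 0.1 FPKM added to both genes, for 3 MHCII-hi libraries (left of each pair) and 3 MHCII-lo libraries, with a bar for each mean. Cd48 to Kit overlaps between the groups, while Cd34, Cd27, Thy1, Flt3 and Ly6a are higher relative to Kit in MHCII-hi. A common factor for a library leaves these ratios unchanged apart from the small added value, but quantile normalization need not.

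Procr and Esam are, with Slamf1, the markers that single out long-term stem cells most closely. Procr (chromosome 2, 155751117 to 155755471, plus strand) encodes the endothelial protein C receptor. It stood at 0.72, 0.28 and 0.49 FPKM in MHCII-hi, against 0.15, 0.40 and 0.21 FPKM in MHCII-lo. The groups overlapped, and the values rest on an estimated 12 to 47 fragments in MHCII-hi and 7 to 20 in MHCII-lo. No difference was detectable at this depth (two-sided exact permutation p = 0.2; without a minimum, limma adjusted p = 0.229).

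Esam (chromosome 9, 37528078 to 37538319, plus strand) encodes an adhesion molecule of endothelial junctions that is also on stem cells. It stood at 0.79, 0.92 and 0.54 FPKM in MHCII-hi, against 0.25, 0.24 and 0.31 FPKM in MHCII-lo, with no overlap. The values rest on an estimated 36 to 73 fragments in MHCII-hi and 16 to 22 in MHCII-lo. Esam was below the minimum for testing. Without a minimum its log2 change was 0.46 (SE 0.09, limma adjusted p = 0.0141). The exact permutation p was 0.1 for Esam and for Slamf1, the smallest possible. Among all 27171 genes above 0 in some library, 21.3% had every MHCII-hi library above every MHCII-lo library.

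The order of levels differed between the groups in the middle of the range. In MHCII-hi, Cd48 was followed by Cd34 (15.5 ± 0.395 FPKM), Flt3 and Kit, whose libraries overlapped, then by Thy1 (9.17 ± 0.465 FPKM) and Cd27 (7.10 ± 0.114 FPKM). In MHCII-lo the order was Cd48, Kit, Cd34 (10.05 ± 0.181 FPKM), Flt3, Thy1 (4.04 ± 0.0737 FPKM) and Cd27 (3.72 ± 0.485 FPKM), and among these neighbours only Thy1 and Cd27 overlapped. Esam, Procr and Slamf1 came last in both groups, each overlapping its neighbour. Kit exceeded 89.4 to 89.5% of listed symbols in MHCII-hi and 87.6 to 87.8% in MHCII-lo.

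Ly6a, which encodes Sca-1, the partner of Kit in the usual gate, differed far more than any of the 9 genes. It stood at 38.53, 34.93 and 33.15 FPKM in MHCII-hi, against 2.72, 2.38 and 2.39 FPKM in MHCII-lo (log2 change 3.38, SE 0.07, limma adjusted p = 6.55e-08). Ly6a was 2.20 to 2.59 times Kit in MHCII-hi and 0.189 to 0.215 times Kit in MHCII-lo. Sca-1 is also carried by mature lymphocytes, and their part in this difference was not tested.

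The direction of the 6 tested markers held under each scaling tried. Leaving immunoglobulin genes out of the total to which libraries are scaled shifted the median over all genes by 0.15 and raised the share of calls that were higher to 69.7%, against 43.5% as deposited. Under it the log2 changes were 0.40 for Kit, 0.41 for Cd48, 0.74 for Cd34, 0.93 for Cd27, 1.16 for Thy1 and 1.33 for Flt3. Under quantile normalization they were 0.23 for Kit, 0.04 for Cd48, 0.57 for Cd34, 0.72 for Cd27, 0.97 for Thy1 and 1.15 for Flt3. Scaling could thus move the changes of Kit and Cd48 by an amount near their own size. Over the scalings tried, the change was 0.23 to 0.40 for Kit and 0.04 to 0.41 for Cd48. The changes of Flt3 and Thy1 are several times larger than the shift of 0.15.

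**Figure D3:**
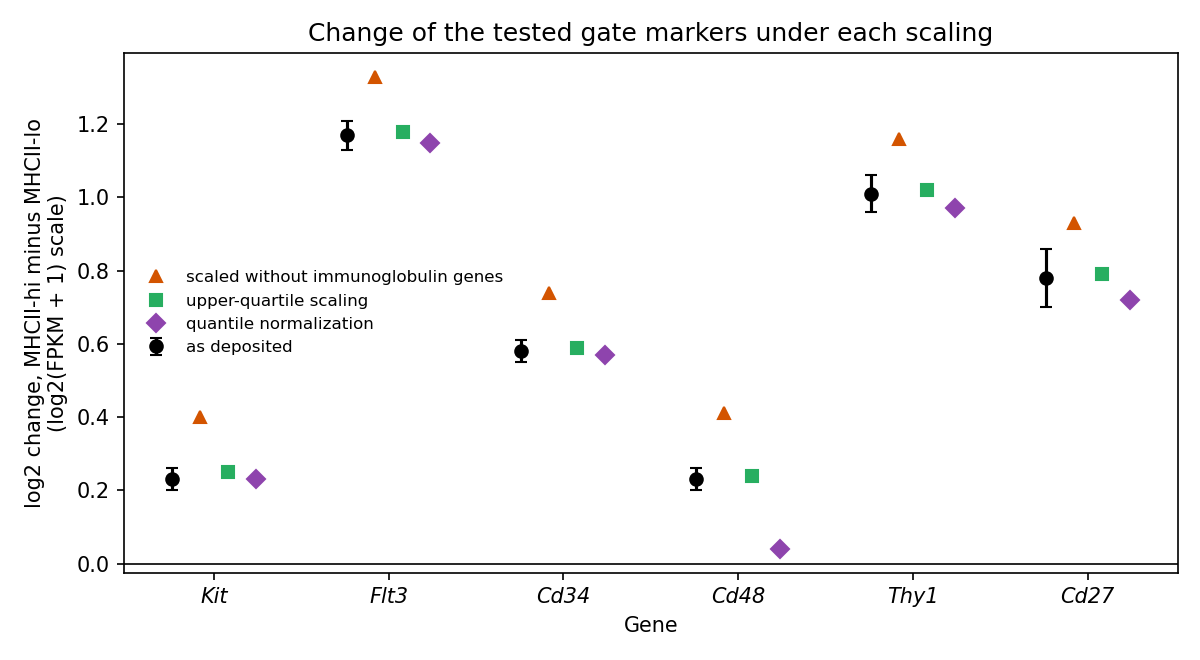
Log2 change (MHCII-hi minus MHCII-lo, with 1 FPKM added) of the 6 tested gate markers as deposited, with SE bars, and under 3 other scalings. Every point lies above 0, and Cd48 under quantile normalization, at 0.04, is the nearest to it.

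By Pearson correlation of log2(FPKM + 1) over the 6 libraries, the 3 genes most like each tested marker were as follows. For Kit they were Ppp1r15a, Ppp1r16b and Tnks, for Flt3 Jmjd1c, Tent5c and Ccnl2, and for Cd34 Golgb1, Msi2 and Naip5, all at r = 0.999. For Thy1 they were Peak1, Clk3 and Rest, also at r = 0.999, and for Cd27 Ilvbl, Slc22a3 and Ankrd17, at r = 0.998. For Cd48 they were Phactr4, Mapk8ip3 and Igtp, at r = 0.998, 0.997 and 0.996. With the libraries in 2 separated groups such values are common: between 862 and 1566 of the 10105 genes searched reached r = 0.95 with a given marker.

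Other surface proteins used on stem cells and progenitors moved in both directions. Of 25 with a row, 21 were tested, 12 rose, 5 fell and 4 did not pass, with a median log2 change of 0.35, against -0.04 over all tested genes. Il7r, which marks lymphoid progenitors, rose to 6.39 ± 0.216 FPKM in MHCII-hi, against 1.84 ± 0.223 FPKM in MHCII-lo. Fcgr3, an Fc receptor of myeloid progenitor gates, fell to 96.9 ± 1.75 FPKM in MHCII-hi, against 135 ± 3.92 FPKM in MHCII-lo. The endothelial and stem cell sialomucin Emcn stood below 0.1 FPKM in both groups.

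Genes that act inside stem cells spanned a wide range of levels. Of 18, 12 were tested, 5 rose, 3 fell and 4 did not pass, with a median log2 change of 0.15. Gata2, a transcription factor of stem and mast cells, rose to 19.5 ± 0.498 FPKM in MHCII-hi, against 10.8 ± 0.405 FPKM in MHCII-lo, and Meis1 and Runx1 rose by log2 changes of 0.62 and 0.31. Mecom, a regulator needed by long-term stem cells, stood at 0.217 ± 0.0603 FPKM in MHCII-hi and 0.0667 ± 0.0115 FPKM in MHCII-lo. Hoxb5 stood below 0.1 FPKM in both groups. Hlf stood at 1.51 ± 0.0808 FPKM in MHCII-hi and 1.22 ± 0.207 FPKM in MHCII-lo and did not pass the test. With Slamf1, Procr and Esam below 1 FPKM and Cd48 high, the RNA of both groups differed from the CD150-positive, CD48-negative surface profile by which long-term stem cells are known; RNA levels are not surface levels, and protein was not measured here.

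Genes listed for the antigens of a lineage-negative gate were present beside the gate markers. Of 10 such genes 7 were tested, 3 rose, 3 fell and 1 did not pass, with a median log2 change of -0.06. Their summed level was 184 to 198 FPKM in MHCII-hi and 261 to 269 FPKM in MHCII-lo, and none was at 0 in every library. Most of that sum was Itgam, at 99.95 ± 5.80 FPKM in MHCII-hi and 142 ± 2.68 FPKM in MHCII-lo. Ptprc, the gene that did not pass, stood at 35.7 ± 0.211 FPKM in MHCII-hi and 37.3 ± 0.396 FPKM in MHCII-lo. It encodes every form of CD45, stem cells included, and values per gene cannot single out the form used in lineage gates. The granulocyte antigen gene Ly6g fell to 33.0 ± 1.49 FPKM in MHCII-hi, against 73.5 ± 2.57 FPKM in MHCII-lo. The NK cell gene Klrb1c rose to 4.48 ± 0.675 FPKM in MHCII-hi, against 0.993 ± 0.0462 FPKM in MHCII-lo. S100a9, an abundant neutrophil transcript, was 427 to 446 times Kit in MHCII-hi and 1333 to 1349 times Kit in MHCII-lo.

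**Figure D4:**
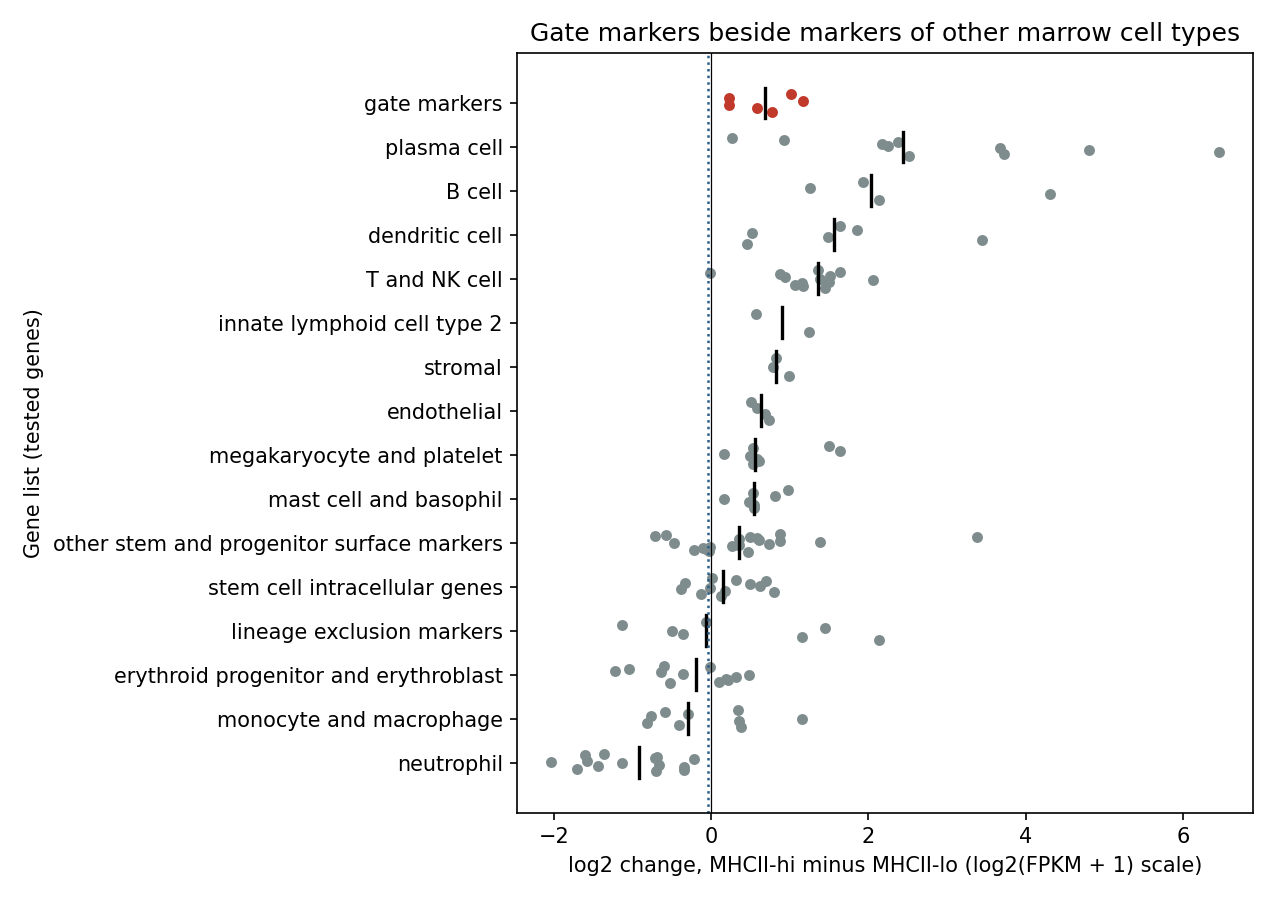
Log2 change (MHCII-hi minus MHCII-lo, with 1 FPKM added) of the tested genes of the gate marker list, in red, and of 15 other lists, in grey, with a bar at each median. The dotted line is the median of all tested genes, -0.04. Gate markers lie between 0.23 and 1.17, beside plasma cell, B cell, dendritic cell, T and NK cell lists that reach further up and a neutrophil list that lies wholly below 0.

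Mature cell types that carry the same surface proteins also differed, and their part in the changes of the gate markers was not tested. For Thy1 these are T cells and innate lymphoid cells, and for Cd27 they include T cells. Of 15 T and NK cell genes 13 were tested, 12 rose and 1 did not pass, with a summed level of 237 to 246 FPKM in MHCII-hi and 173 to 182 FPKM in MHCII-lo. Most of that sum was Nkg7, the gene that did not pass, at 148 ± 3.42 FPKM in MHCII-hi and 150 ± 3.99 FPKM in MHCII-lo. Il2rb, Trbc2 and Il7r led the list. The T cell receptor gene Trbc2 stood at 16.4 ± 0.806 FPKM in MHCII-hi and 5.78 ± 0.447 FPKM in MHCII-lo. The 8 genes of type 2 innate lymphoid cells summed to 13.9 to 14.7 FPKM in MHCII-hi and 5.02 to 5.68 FPKM in MHCII-lo. Of these, Il17rb and Il1rl1 were tested and both rose. No gene of either list was at 0 in every library.

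For Flt3, dendritic cells and their precursors are known carriers. Of 10 dendritic cell genes 6 were tested and all 6 rose, with a summed level of 86.2 to 94.8 FPKM in MHCII-hi and 45.4 to 46.0 FPKM in MHCII-lo. Most of that sum was Irf8 and Bst2, at 28.0 and 33.1 FPKM in MHCII-hi and 19.2 and 23.9 FPKM in MHCII-lo. Cd209a, Itgax and Siglech led the list, with log2 changes of 3.44, 1.86 and 1.64, and no gene of it was at 0 in every library. For Kit and Cd34, mast cells and their precursors are carriers. Of 10 mast cell and basophil genes 7 were tested, 6 rose and 1 did not pass, with a summed level of 973 to 986 FPKM in MHCII-hi and 547 to 567 FPKM in MHCII-lo. Mcpt8, Prss34 and Fcer1a, which basophils express, led them. The connective tissue mast cell protease genes Mcpt4 and Tpsb2 were at 0 in every library, and Cma1 was below 0.1 FPKM in both groups.

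For Esam, Procr and Cd34, endothelial cells are carriers, and for Esam megakaryocytes too. Of 12 endothelial genes 4 were tested and all 4 rose, with a summed level of 23.4 to 24.8 FPKM in MHCII-hi and 13.7 to 13.9 FPKM in MHCII-lo. Pecam1, Eng and Tie1 led them, and blood cells express Pecam1 as well. Cldn5 was at 0 in every library, and Kdr, Emcn and Stab2 were below 0.1 FPKM in both groups. Of 10 megakaryocyte and platelet genes 8 were tested, 6 rose and 2 did not pass, with a summed level of 70.5 to 73.3 FPKM in MHCII-hi and 42.6 to 45.9 FPKM in MHCII-lo. Tubb1, Itga2b and Ppbp led them.

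Of the 15 other lists, plasma cell genes had the highest median log2 change, 2.44, and neutrophil genes the lowest. All 10 plasma cell genes were tested and rose, led by Jchain, Pou2af1 and Irf4, with a summed level of 1562 to 1573 FPKM in MHCII-hi and 103 to 107 FPKM in MHCII-lo. Of 12 B cell genes 4 were tested and rose, led by Cd79a, with a summed level of 57.9 to 59.8 FPKM in MHCII-hi and 7.64 to 9.12 FPKM in MHCII-lo. In MHCII-lo most of that sum was Cd79b, at 7.47 ± 0.556 FPKM, against 19.4 ± 2.50 FPKM in MHCII-hi. All 14 neutrophil genes fell, by a median of -0.92 on the log2 scale, with a summed level of 19073 to 19366 FPKM in MHCII-hi and 43431 to 44045 FPKM in MHCII-lo. Of 11 monocyte and macrophage genes 9 were tested, 4 rose and 5 fell. Lyz2 and Cd14, which fell, and Cx3cr1, which rose, led them. The 11 genes summed to 2198 to 2267 FPKM in MHCII-hi and 3214 to 3231 FPKM in MHCII-lo. Most of that sum was Lyz2, at 1762.5 ± 28.9 FPKM in MHCII-hi and 2652 ± 15.4 FPKM in MHCII-lo. Of 12 erythroid genes, in a lineage whose progenitors carry KIT, 4 rose, 6 fell and 2 did not pass, with a summed level of 404 to 410 FPKM in MHCII-hi and 530 to 545 FPKM in MHCII-lo. Of 10 stromal genes 3 were tested and rose, with a summed level of 15.7 to 17.3 FPKM in MHCII-hi and 6.81 to 7.10 FPKM in MHCII-lo, and Pdgfra was below 0.1 FPKM in both groups.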

How the data were processed

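Sorted-cell RNA went into a stranded mRNA library kit, per the labels' protocols. fastp, HISAT2 and StringTie and the builds GRCm38 and mm10 are named, per the submitters' processing notes; their versions, the annotation and the strand setting are not given there. The authors made and deposited FPKM values, 1 table per library, by fragment counts scaled to transcript length and depth; the header names no unit, and it was read from the values, which are not whole numbers and whose library sums differ. Of 30803 rows, 70 were dropped by keeping the row with the highest mean of those sharing a symbol.

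The 12110 genes that averaged 1 FPKM or more were tested with limma 3.58.1 (R 4.3.3), after adding 1 FPKM and taking log2, with an intensity trend and no covariate. Tests were two-sided, and p-values were Benjamini-Hochberg adjusted across those genes, with a threshold of 0.05. The log scale understates the change of low genes. Genes below the minimum and ratios within a library were compared by exact permutation (scipy 1.17.1), over 8 ratios in all. The fit was tested on simulated data.

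Depth was estimated from the first step of low values in single-exon genes of 100 to 1000 bases, sought only within a fixed window, and fragment numbers are estimates that cover counting error only. The squared log differences of replicate pairs were 2.69 to 3.00 times those of counting noise, by their medians. Replicates were counted separately. Coordinates and exon lengths come from GENCODE M21 on GRCm38. Same-numbered libraries did not deviate together.

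The members and lists were chosen with earlier results of these data known. Named were every member, Ly6a, up to 3 genes of smallest p in each list, list genes under 0.1 FPKM in both groups, and the 3 genes most correlated with each tested member; some of these are not reported here. Kitl, Cd244a, Fcgr3, Mecom, Hlf, Itgam, Ptprc, S100a9, Nkg7, Irf8 and Bst2 were chosen after their values were seen. The alternatives were a block for replicate number, leaving out each library, other pseudocounts and minimums, 3 scalings, limma without trend or with robust moderation, and summed rows. The ratios to Kit were added after seeing the data.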

Additional observations from a re-analysis of the deposited data

How the results depend on the processing

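The 6 tested gate markers were called higher, and 0 lower, under the replicate block, each library left out, a pseudocount of 0.1, no trend, robust moderation, summed rows, upper-quartile scaling, a minimum of 5 FPKM and scaling without immunoglobulin genes. With no minimum 8 of 9 were, the additional ones being Slamf1 (limma adjusted p = 0.0458) and Esam (limma adjusted p = 0.0141). In that setting 14.6% of 27171 genes were called higher. Under quantile normalization Cd48 was no longer called (log2 change 0.04, limma adjusted p = 0.251), and the cause was not tested. Over all genes, 1792 were called higher with a minimum of 5 FPKM, where fewer genes were tested, and scaling without immunoglobulin genes called 4901 higher and 2131 lower. With the replicate number as a block 2856 genes were higher and 3782 lower, and 6 gate markers were higher. Same-numbered libraries correlated at -0.0920 to -0.00360 in their deviations, and no library of either group correlated best with its own number. With 3 libraries a group, such values cannot show whether same-numbered libraries shared a mouse or a batch. Leaving out each library gave 2760 to 2893 higher and 3589 to 3688 lower genes. The Cd48 to Slamf1 difference in log2 ratio, -0.44, became 0.02 with a pseudocount of 1 FPKM, which is above every Slamf1 value, and -0.64 with one of 0.01 FPKM, and lay between -0.62 and -0.34 with each library left out. Paired by number it was -0.44 (exact sign-flip p = 0.5). The Cd48 to Kit difference lay between -0.04 and 0.01 with each library left out. Depth limits Slamf1, Procr and Esam, whose log2 changes lay between 0.18 and 0.25, 0.15 and 0.36, and 0.39 and 0.55 with each library left out.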
